A study of Mus musculus with 8 samples.

Results

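Base excision repair is the pathway that removes single damaged or wrong bases from DNA, and 10 of its genes were followed in mouse retinas with and without a conditional knockout of *Mettl3*, the catalytic subunit of the m6A methyltransferase complex. The genes were taken by name from the deposited table of 54532 genes: the DNA glycosylases *Ung*, *Ogg1*, *Mutyh*, *Nthl1*, *Neil1* and *Neil3*, the AP endonuclease *Apex1*, the gap-filling polymerase *Polb*, the scaffold *Xrcc1* and the ligase *Lig3*. All 10 were found and all 10 passed the filter on low counts. RNA-seq was made from 4 retinal samples of *Six3-Cre+; Mettl3 floxed/floxed* animals (*Mettl3*-CKO, or CKO) and 4 of controls, which the series' description calls littermates. The alleles of the controls were not given, and neither was whether a sample held the retinas of 1 animal or of several. The age was postnatal day 7 by the sample labels, while the methods give an age 1 day earlier. *Six3-Cre* acts in retinal progenitor cells (RPCs), and the study describes loss of METTL3 protein in the central retina, so cells that escaped deletion could have contributed RNA to the CKO samples.

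In this pathway a glycosylase recognizes a damaged base and cuts it from the sugar, which leaves an abasic site. APEX1 nicks the DNA backbone at that site, POLB fills the gap with the right nucleotide, and LIG3, held by the scaffold XRCC1, seals the nick. A second route displaces a longer stretch of DNA and uses replication proteins such as FEN1, PCNA and LIG1. APEX1 is also known as a redox factor for several transcription factors, and it serves every glycosylase that leaves an abasic site, whereas each glycosylase serves its own set of lesions. In the retina the pathway is known chiefly for dealing with oxidized bases in photoreceptors, which have a high oxygen demand, and with uracil that is incorporated when progenitors copy their DNA. The study itself chose *Apex1* from its single-cell data, as one of 8 m6A-tagged transcripts that it went on to examine, so the direction of *Apex1* is not independent of that choice.

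The targeted gene *Mettl3* was at 21.1, 29.6, 21.3 and 24.3 CPM (read counts scaled to the library size with TMM factors) in CKO samples 1 to 4 and at 33.8, 32.5, 29.4 and 29.3 CPM in controls (adjusted p = 0.0602, quasi-likelihood test of edgeR), with CKO sample 2 within the control range. These counts cover the whole gene, not the deleted part alone. Rod genes were lower in CKO retinas (5 of 9 called), as were endothelial genes (6 of 7 tested) and erythrocyte genes (2 of 3 tested), beside 4.05% of all genes called lower. Lens genes summed to 6067 CPM in control 4, 111 CPM in control 1 and at most 29.9 CPM elsewhere, and mitochondrial genes took the most counts, 2.38%, in control 1. The libraries held 16227095 to 20281517 counts each, and each of the 10 genes was read at least 81 times in every sample.

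Of the 10 genes, *Apex1* rose in CKO retinas, by 1.73-fold, and the other 9 did not pass the test. *Apex1* was at 73.3, 52.6, 59.6 and 54.2 CPM in CKO samples 1 to 4 and at 40.7, 33.2, 32.9 and 31.5 CPM in controls 1 to 4. Every CKO sample thus lay above every control. The means were 59.9 ± 9.42 CPM (SD, n = 4) in CKO and 34.6 ± 4.11 CPM (SD, n = 4) in control retinas, for a log2 fold change of 0.79 with an SE of 0.12 (adjusted p = 0.00204, quasi-likelihood test of edgeR). This 1 call among 10 genes stands beside 10.5% of the 17998 genes tested that were called in either direction, with 6.49% called higher and 4.05% called lower. At an unadjusted p under 0.05 the same fit gave 5 of the 10, 4 higher and 1 lower, beside 24.6% of all genes. The share of calls in the list, 1 of 10, was thus near that of the whole table. All 4 CKO samples lay above all 4 controls for 2 of the 10 genes (9.77% of all genes) and below them for none (7.58% of all genes). The median log2 fold change of the 10 genes was 0.07, and that of all tested genes was -0.01.

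The promoter sequence of *Apex1* is shown because its RNA carries the one call among these genes, with those of *Ung* and *Lig3*, whose differences came next in the test. Sequences are from RefSeq (GRCm38.p6), 5′ to 3′ on the strand of the gene, and run from 250 bases before the annotated start to 50 bases after it. They lie at chr14:50924699-50924998 (*Apex1*, plus strand), chr11:82780859-82781158 (*Lig3*, plus strand) and chr5:114130185-114130484 (*Ung*, plus strand). Capitals mark the CCAAT box and CACGTG, the palindromic E-box, searched on both strands, which do not overlap one another here.
*Apex1*: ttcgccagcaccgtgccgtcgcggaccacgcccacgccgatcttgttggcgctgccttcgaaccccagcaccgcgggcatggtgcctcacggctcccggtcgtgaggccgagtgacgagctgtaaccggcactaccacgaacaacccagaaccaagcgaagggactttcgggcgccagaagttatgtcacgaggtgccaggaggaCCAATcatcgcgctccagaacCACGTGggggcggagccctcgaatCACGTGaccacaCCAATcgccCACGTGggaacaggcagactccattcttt
*Lig3*: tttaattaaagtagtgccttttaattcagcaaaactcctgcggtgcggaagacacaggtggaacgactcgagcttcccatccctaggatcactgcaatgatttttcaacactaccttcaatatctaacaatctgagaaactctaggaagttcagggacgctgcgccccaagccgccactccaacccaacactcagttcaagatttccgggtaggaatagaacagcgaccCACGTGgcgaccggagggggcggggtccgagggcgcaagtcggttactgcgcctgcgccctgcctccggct
*Ung*: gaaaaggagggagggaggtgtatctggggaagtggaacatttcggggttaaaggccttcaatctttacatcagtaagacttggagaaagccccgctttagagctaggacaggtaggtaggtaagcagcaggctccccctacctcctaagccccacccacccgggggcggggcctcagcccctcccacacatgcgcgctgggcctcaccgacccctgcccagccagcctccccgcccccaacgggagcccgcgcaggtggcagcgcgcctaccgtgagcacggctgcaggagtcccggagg

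The *Apex1* window held CACGTG 3 times and CCAAT 2 times, the *Lig3* window held CACGTG once and the *Ung* window held neither. CACGTG was present in 7.15% of the 32851 mouse promoters of this table and occurred 3 or more times in 0.0883% of them. CCAAT, on either strand, was present in 37.4%, among them those of *Apex1*, *Mutyh*, *Nthl1*, *Ogg1* and *Xrcc1*. The E2F words TTTGGCG and TTTCCCG, present in 4.84% of all promoters, were in none of the windows of the 9 genes that matched. Other forms of the E2F word were not searched. *Polb* had no entry. CACGTG was added to the search after the *Apex1* sequence had been read, and a match describes the letters only, since no binding was measured.

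Because METTL3 places m6A within GGAC-type sequences, often near the stop codon, the word GGACT was looked up in 1 annotated mRNA of each gene (GENCODE vM21, GRCm38). *Apex1* held it 3 times in 1239 bases and *Xrcc1* 7 times in 2528 bases, whereas *Ung*, with 2136 bases, and *Neil1*, with 1693 bases, held none. *Lig3* held it 6 times, *Ogg1* and *Neil3* 3 times each, *Mutyh* and *Polb* 2 times each and *Nthl1* 1 time. The word was present somewhere in the mRNA of 87.5% of 21683 protein-coding genes, so holding it does not mark *Apex1*. Within 200 bases of the stop codon it was found in 4 of the 10 genes, against 36.3% of 21683 protein-coding genes. The sites are shown with GGACT in capitals.
*Apex1*, 155 bases before the stop codon: cttacactttctGGACTtacatgatgaat
*Nthl1*, 99 bases before the stop codon: agtgaggtcaacGGACTactggtaggctt
*Xrcc1*, 178 bases before the stop codon: tggcgagctcgaGGACTatatgaatgagc
*Lig3*, starting on the last base of the stop codon: agctccctgctaGGACTttggtcttcctc
The genes with such a site thus include *Apex1*, which rose, and *Xrcc1*, *Nthl1* and *Lig3*, which did not pass the test. Whether these sites were methylated was not measured in the counts. For *Apex1* the study reports several m6A tags near the stop codon by MeRIP-seq, and less m6A in CKO retinas by MeRIP-qPCR.

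In control retinas *Apex1* and *Polb* had the highest levels of the 10 genes, in an order that depended on the length used. Per kilobase of the deposited gene length, which joins the exons of all transcripts, *Apex1* was at 24.3 ± 2.89 CPM per kilobase (SD, n = 4), followed by *Polb* at 18.2 ± 1.89, and these 2 genes overlapped neither each other nor the next in order. *Xrcc1* at 9.35 ± 0.791, *Lig3* at 8.25 ± 0.962, *Neil3* at 7.60 ± 2.06 and *Neil1* at 7.37 ± 1.16 came next, and each overlapped its neighbour in the order. *Nthl1* at 5.48 ± 0.895, *Ogg1* at 4.09 ± 0.577, *Mutyh* at 3.86 ± 0.563 and *Ung* at 2.72 ± 0.846 were lowest and again overlapped their neighbours. The AP endonuclease and the polymerase thus had higher RNA levels per kilobase than any single one of the 6 glycosylases among the 10 genes. *Tdg*, a glycosylase outside the 10 genes, was at 32.2 CPM per kilobase of gene length in controls, above both. The deposited length of *Polb* is 3940 bases and that of its mRNA looked up above is 1201 bases, against 1422 and 1239 bases for *Apex1*. Per kilobase of 1 mRNA for each gene, a scale added after the data had been seen, *Polb* came first and *Apex1* second. They were at 59.7 ± 6.19 and 27.9 ± 3.32 CPM per kilobase (SD, n = 4 each), again apart from each other and above each of the 6 glycosylases. On that scale *Neil3* at 18.8 ± 5.07 stood above *Lig3* at 10.4 ± 1.21, and the lowest mean was that of *Nthl1* at 5.49 ± 0.896, not that of *Ung* at 6.96 ± 2.16. In CKO retinas *Apex1* and *Polb* were at 42.1 and 17.9 CPM per kilobase of gene length and at 48.4 and 58.6 CPM per kilobase of mRNA. Exon bases shared with a gene on the other strand make up 61.7% of *Apex1*, 25.1% of *Lig3* and 10.6% of *Ogg1*. How reads there were counted is uncertain, so the levels of these genes and their places in the order are uncertain on both scales.

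**Figure D1:**
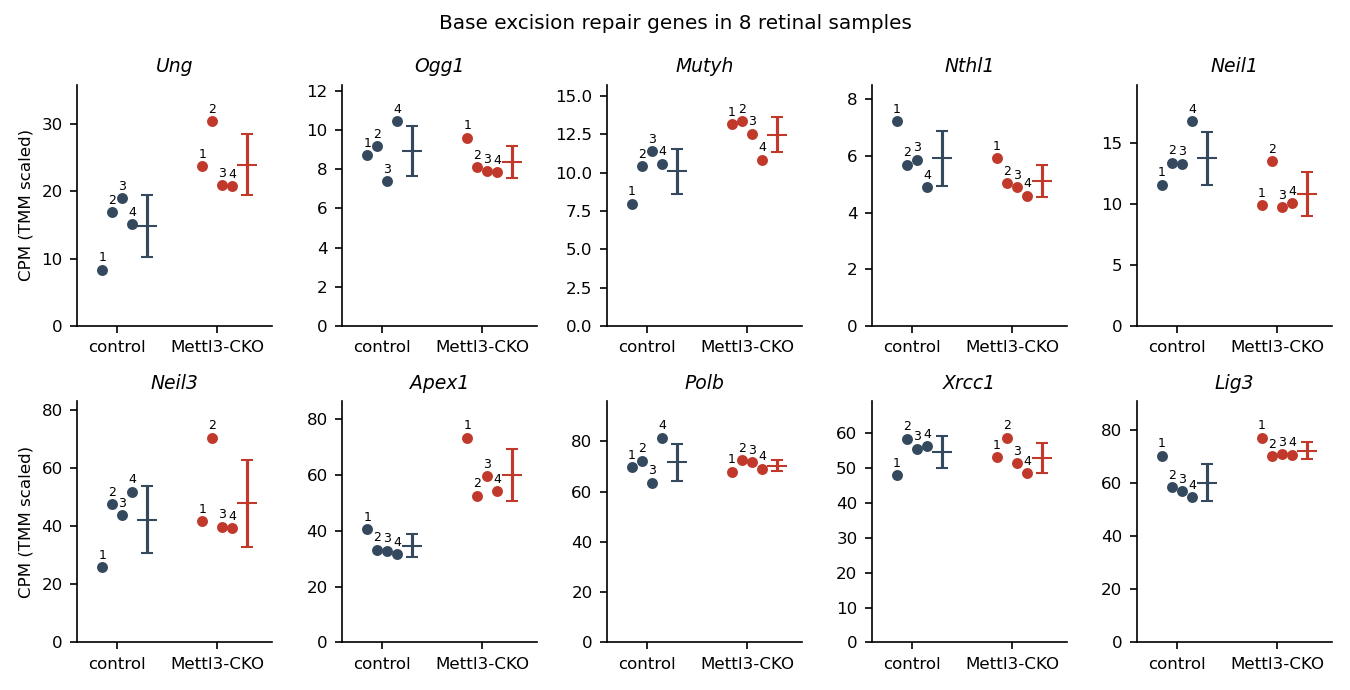
Level of each of the 10 genes in CPM after TMM scaling (vertical axes start at 0) in 4 control and 4 CKO retinas. Points are samples with their replicate number, and the bars beside them are mean and SD. Groups are apart for *Apex1* (31.5 to 40.7 against 52.6 to 73.3) and *Ung* (8.35 to 19.04 against 20.8 to 30.4) and overlap for the other 8 genes.

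Of the 6 glycosylases, none passed the test, and *Ung* came closest. UNG removes uracil from DNA and has a nuclear and a mitochondrial form, which gene counts do not part. The gene lies on chromosome 5 from 114130386 to 114139323 (GRCm38, plus strand). *Ung* was at 23.8, 30.4, 20.9 and 20.8 CPM in CKO samples 1 to 4 and at 8.35, 16.9, 19.04 and 15.2 CPM in controls 1 to 4. The groups did not overlap, but control 1 was far below the other controls. The log2 fold change was 0.69 with an SE of 0.21 (edgeR adjusted p = 0.0552). It was 0.49 without control 1, with an adjusted p of 0.0232 from edgeR in a fit that called 17.4% of all genes, and DESeq2 on all samples, which called 14.2% of all genes, gave 0.68 and an adjusted p of 0.0155.

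*Mutyh*, whose product removes adenine paired with oxidized guanine, was at 13.2, 13.3, 12.5 and 10.8 CPM in CKO samples 1 to 4 and at 7.97, 10.4, 11.4 and 10.6 CPM in controls. The highest control exceeded the lowest CKO sample, and the log2 fold change of 0.31 had a 95% interval from 0.0088 to 0.60 (edgeR adjusted p = 0.19). *Ogg1*, which removes oxidized guanine itself, was at 8.38 ± 0.835 CPM with the knockout and 8.94 ± 1.26 CPM in controls (SD, n = 4 each). Its log2 fold change was -0.09, with an interval from -0.40 to 0.22, so that a change of 1.5-fold in either direction lies outside it. The 2 genes that handle oxidized guanine and its mispair therefore gave no call in either direction.

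*Nthl1*, *Neil1* and *Neil3* encode the glycosylases for oxidized pyrimidines and related lesions. *Neil1* was at 9.90, 13.5, 9.78 and 10.1 CPM in CKO samples 1 to 4 and at 11.6, 13.4, 13.3 and 16.8 CPM in the 4 controls, for a log2 fold change of -0.35 with an SE of 0.15 (edgeR adjusted p = 0.168). CKO sample 2 lay above 3 of the 4 controls, while the other 3 lay below all of them. *Nthl1*, with 81 to 135 counts the gene with the fewest reads here, was at 5.11 ± 0.569 and 5.92 ± 0.966 CPM (SD, n = 4 each), which gave a log2 fold change of -0.22 with an interval from -0.57 to 0.14. *Neil3*, which is known for its expression in dividing cells, was at 41.7, 70.3, 39.8 and 39.2 CPM with the knockout and at 25.8, 47.6, 43.7 and 51.9 CPM in controls. Its coefficient of variation was 31.6% in CKO samples and 27.1% in controls, and the log2 fold change of 0.18 had an interval from -0.30 to 0.65. It turned to -0.07 without CKO sample 2. Summed per kilobase over the 6 glycosylases, the level was 32.1 ± 4.84 in CKO retinas and 31.1 ± 3.55 CPM per kilobase in controls (SD, n = 4 each), a difference smaller than the spread within either group, as it was by mRNA length (56.5 ± 10.3 and 51.2 ± 8.11).

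*Apex1* lies on chromosome 14 from 50924968 to 50927139 (GRCm38, plus strand), and its 3′ part runs against *Pip4p1*, a phosphatase gene on the minus strand. Of the 1422 annotated exon bases of *Apex1*, 877 are shared with exons of *Pip4p1*, or 61.7%, all of them through 1 of the 11 annotated *Pip4p1* transcripts. The other 545 bases are *Apex1* alone. The use of strand in counting was not given, so how reads in the shared part were assigned is uncertain for both genes. *Pip4p1* itself was at 52.2, 53.6, 60.6 and 56.2 CPM in CKO samples 1 to 4 and at 69.0, 62.8, 65.2 and 63.0 CPM in controls, with every CKO sample below every control. Its log2 fold change of -0.22 (edgeR adjusted p = 0.113) was opposite in sign to that of *Apex1*. The values of the 2 genes thus lay on opposite sides, with *Pip4p1* short of the threshold, and the part of the shared bases in the *Apex1* difference was not tested.

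**Figure D2:**
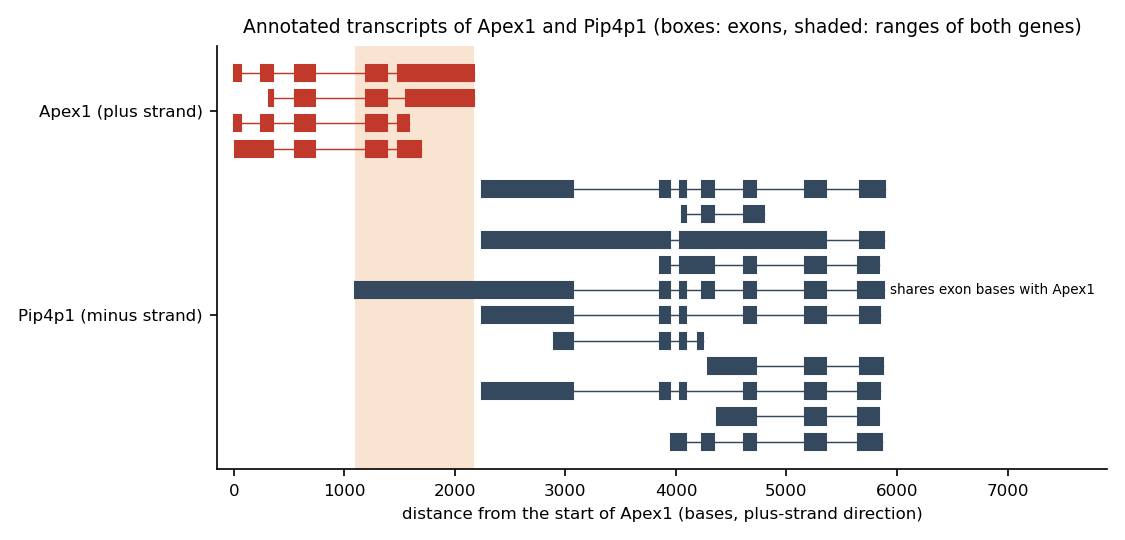
Annotated transcripts of *Apex1* (4, plus strand) and *Pip4p1* (11, minus strand), with distance in bases from the start of *Apex1* on the horizontal axis and exons as boxes. The shaded stretch belongs to the ranges of both genes, and 1 *Pip4p1* transcript has an exon there, which covers 877 exon bases of *Apex1*.

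Gap filling and ligation followed with smaller values. *Polb* encodes the main gap-filling polymerase of the pathway and was at 70.3 ± 2.12 CPM with the knockout and 71.8 ± 7.43 CPM in controls (SD, n = 4 each). Its log2 fold change of -0.03 had a 95% interval from -0.22 to 0.17, and *Xrcc1*, the scaffold, at 52.9 ± 4.27 and 54.5 ± 4.61 CPM, had one of -0.04 with an interval from -0.25 to 0.16. *Lig3*, the ligase that also serves mitochondrial DNA, encoded on chromosome 11 from 82781108 to 82804274 (GRCm38, plus strand), was at 77.1, 70.2, 70.8 and 70.7 CPM in CKO samples 1 to 4 and at 70.4, 58.5, 57.0 and 54.6 CPM in controls 1 to 4. Control 1 reached the level of the CKO samples, and the other 3 controls lay below. The log2 fold change was 0.26 with an SE of 0.10 (edgeR adjusted p = 0.101), and without control 1 it was 0.35 with an adjusted p of 0.0085 from edgeR, in a fit that called 17.4% of all genes. *Lig3* shares 25.1% of its exon bases with *Rffl* on the other strand, which had a log2 fold change of 0.37 (edgeR adjusted p = 0.0951). *Ogg1* shares 10.6% of its exon bases with *Camk1* and *Polb* 1.14% with *Gm26909*, while the other 6 genes share none with another annotated gene.

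Ratios of levels per kilobase of gene length between the steps are given as a description. The length sets their size, and not how they differ between samples where only 2 genes enter. *Apex1* to *Polb* was 2.99, 2.01, 2.30 and 2.17 in CKO samples 1 to 4 and 1.62, 1.27, 1.44 and 1.07 in controls 1 to 4. By mRNA length its means were 0.828 ± 0.151 and 0.472 ± 0.0811 (SD, n = 4 each), so that which of the 2 RNAs was the more abundant cannot be read from these ratios. *Apex1* to *Lig3* was 4.87, 3.84, 4.31 and 3.93 in CKO samples and between 2.91 and 2.96 in all 4 controls, with an SD of 0.0254 among the controls and 0.471 among the CKO samples. In the controls these 2 genes were thus high and low in the same samples and in nearly 1 proportion, which the CKO samples left. *Apex1* against the 6 glycosylases summed was 1.34 ± 0.279 in CKO retinas and 0.799 ± 0.201 in controls (SD, n = 4 each), and here CKO sample 2 at 0.950 lay below control 1 at 1.10. By mRNA length these means were 0.878 ± 0.204 and 0.567 ± 0.180.

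The rest of the pathway was read from a list of 33 genes, of which 1, *Fen1*, was upregulated and none downregulated in edgeR's test, beside 10.5% of all genes called. At an unadjusted p under 0.05 it held 10 higher and 2 lower, beside 24.6% of all genes, and DESeq2 called 2 higher, *Fen1* and *Pole3*, and none lower, beside 14.2% of all genes. The list's share was thus below that of the whole table by adjusted p and above it by unadjusted p, and the median log2 fold change was 0.10. All CKO samples lay above all controls for 6 of the 33 genes (9.77% of all genes) and below them for 1 (7.58% of all genes). *Fen1*, the nuclease that removes the displaced flap, was at 13.1, 7.02, 8.93 and 8.40 CPM in CKO samples 1 to 4 and at 5.19, 4.78, 3.62 and 6.04 CPM in the 4 controls, for a log2 fold change of 0.93 with an SE of 0.21 (edgeR adjusted p = 0.0159). All CKO samples lay above the controls, and CKO sample 1 was the highest. Leaving that sample out gave 0.73 (edgeR adjusted p = 0.0611), and no gene of the 33 was then called, in a fit that called 3.79% of all genes. Of the 2422 exon bases of *Fen1*, 78.8% are shared with the antisense gene *Gm10143*, which was listed with 10 to 16 counts per sample, so the *Fen1* level is uncertain.

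**Figure D3:**
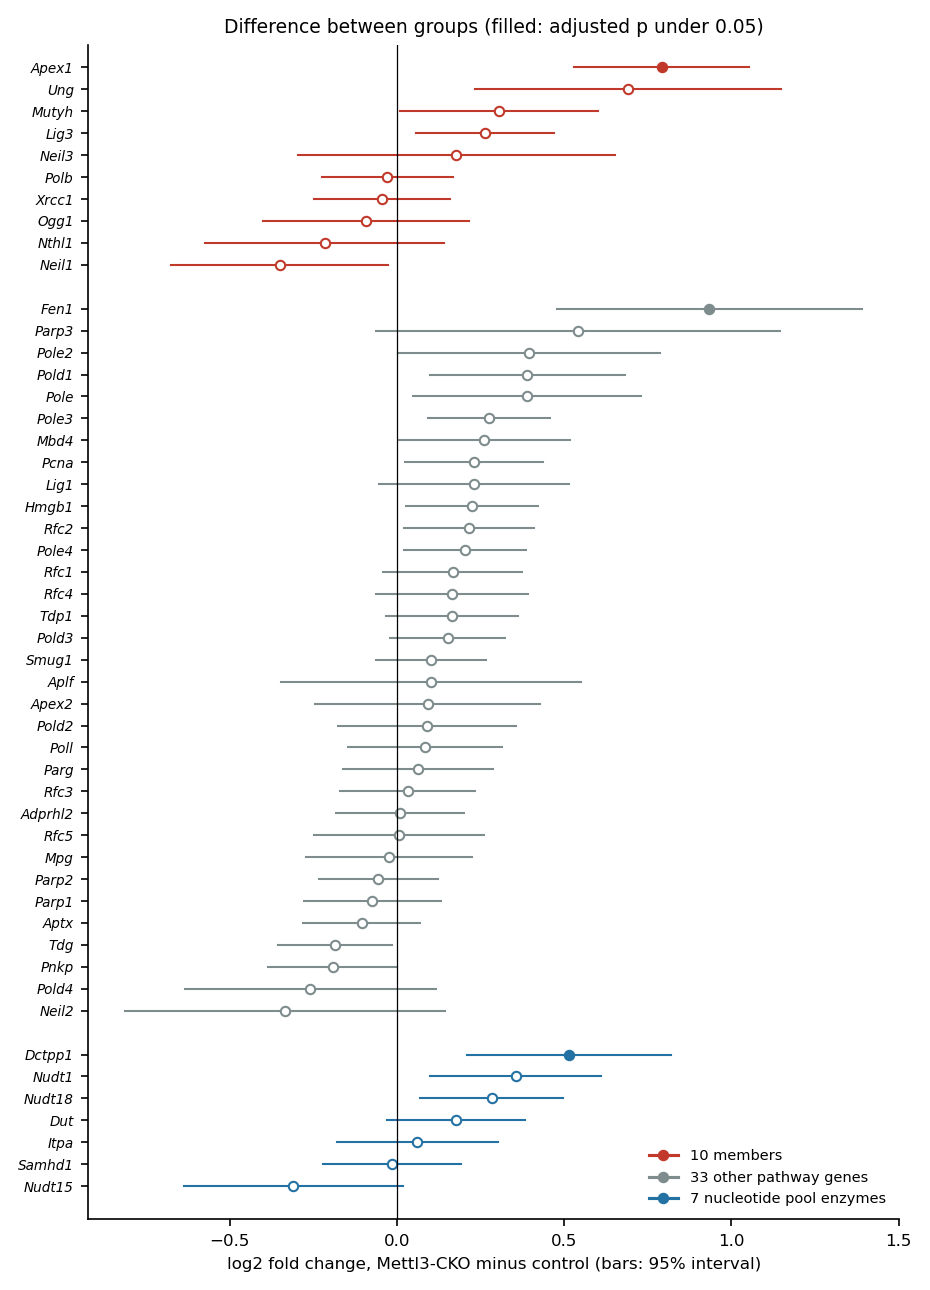
Log2 fold change of *Mettl3*-CKO over control with its 95% interval from edgeR for the 10 genes, 33 other genes of the pathway and 7 enzymes of the nucleotide pool. Filled points passed an adjusted p of 0.05: *Apex1* (0.79), *Fen1* (0.93) and *Dctpp1* (0.51).

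Paralogs of the 10 genes gave no call. *Apex2*, the second AP endonuclease, was at 18.3 ± 3.78 CPM with the knockout and 17.1 ± 2.39 CPM in controls (SD, n = 4 each), a log2 fold change of 0.09 with an interval from -0.24 to 0.43 that does not reach the value of *Apex1*. *Neil2* had a log2 fold change of -0.33 with an interval from -0.81 to 0.14, and *Lig1*, the ligase of the long route and of replication, of 0.23 with an interval from -0.05 to 0.51. *Tdg*, a glycosylase for mispaired thymine and uracil and for oxidized methylcytosine, was at 152 ± 11.4 CPM with the knockout and 173 ± 5.23 CPM in controls (SD, n = 4 each), lower in every CKO sample than in every control but not called (edgeR adjusted p = 0.165). *Parp1*, which senses strand breaks, was at -0.07 and *Pcna*, the sliding clamp, at 0.23, neither of them called.

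Upstream of the pathway, 7 enzymes that clear damaged or wrong nucleotides before they enter DNA were read in the same fit, and 1 was called, higher with the knockout, beside 10.5% of all genes. At an unadjusted p under 0.05 there were 3, all higher, beside 24.6% of all genes. *Dctpp1*, a pyrophosphatase of modified cytosine nucleotides, was at 37.8, 25.7, 34.2 and 30.8 CPM in CKO samples 1 to 4 and at 27.3, 21.7, 22.7 and 18.2 CPM in the 4 controls, for a log2 fold change of 0.51 with an SE of 0.14 (edgeR adjusted p = 0.0351). Control 1 lay above CKO sample 2, and the call was lost in 6 of 8 fits with one sample fewer. These were the fits without CKO sample 1, 3 or 4 and without control 2, 3 or 4, with adjusted p-values between 0.06 and 0.126 from edgeR. They called 3.79% to 8.64% of all genes, against 10.5% in the fit of all samples. *Nudt1*, which hydrolyses oxidized guanine nucleotides, had a log2 fold change of 0.35 (edgeR adjusted p = 0.0739), and *Dut*, which keeps uracil out of DNA and so acts ahead of *Ung*, of 0.18 (edgeR adjusted p = 0.283).

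RNA of dividing progenitors also differed between these samples, and in bulk tissue a larger number of cells of a type and more RNA per cell cannot be told apart. Of 17 S phase genes, 7 were upregulated and none downregulated, with a median log2 fold change of 0.40 (at an unadjusted edgeR p under 0.05, 14 and none, beside 24.6% of all genes in either direction). Of 10 mitosis genes 2 and of 9 RPC genes 3 were upregulated. For all 3 lists the share of all genes called higher was 6.49%. Counts of the 17 S phase genes summed to 1463, 1565, 1471 and 1234 CPM in CKO samples 1 to 4 and to 961, 1179, 1211 and 1143 CPM in controls 1 to 4. Mitosis genes summed to 1703 to 2383 CPM in CKO samples and 1254 to 1613 CPM in controls. RPC genes summed to 2446 to 3394 CPM in CKO samples and 1854 to 2495 CPM in controls, and rod genes to 1817 to 3353 CPM and 3224 to 5112 CPM. *Ung* and *Mutyh* were lowest in control 1, which had the lowest S phase sum, and highest in CKO sample 2, which had the highest, and *Neil3* had the same extremes. *Apex1* did not have them: control 1 was the highest control for *Apex1*, and CKO sample 2 was the lowest of its group. CKO sample 4 and control 3, a single picked pair, were nearly level in the S phase sum (1234 and 1211 CPM). They were not level in the mitosis sum (1703 and 1355 CPM). In these samples *Apex1* was at 54.2 and 32.9 CPM, *Ung* at 20.8 and 19.04 CPM and *Mutyh* at 10.8 and 11.4 CPM. The part of S phase cells in the differences of these genes was not tested.

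**Figure D4:**
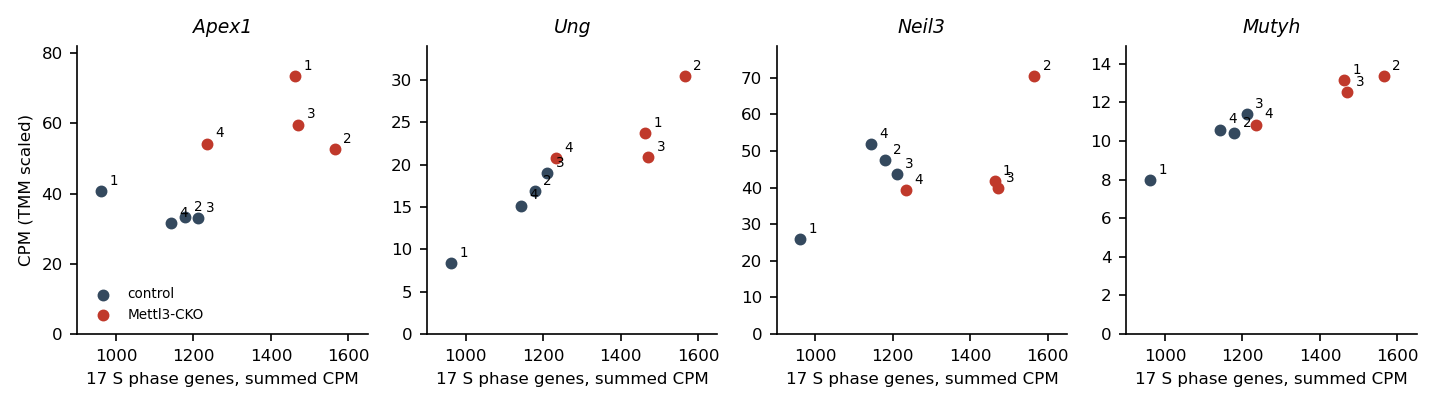
CPM of *Apex1*, *Ung*, *Neil3* and *Mutyh* (vertical axes start at 0) against the summed CPM of 17 S phase genes in each of 8 samples, labelled with the replicate number. Control 1 (961 CPM) and CKO sample 2 (1565 CPM) hold the lowest and the highest value of *Ung*, *Neil3* and *Mutyh* but of *Apex1* neither extreme.

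Among 9675 genes with a mean of at least 4 on the log2 CPM scale, those whose profile over the 8 samples was most like that of *Apex1* were *Serpine2*, *Coasy*, *Umps*, *Bag5* and *Pex13*. Likeness was the root mean square difference of log2 CPM, each gene centred on its own mean, and it lay between 0.0558 and 0.067 for these 5 genes against a median of 0.447 over all candidates. Their log2 fold changes lay between 0.72 and 0.82, a nearness to *Apex1* that follows from how they were chosen. Of the other 9 repair genes, *Lig3* was nearest at 0.275 and *Neil1* farthest at 0.654.

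The 7 transcripts that the study examined together with *Apex1* are given beside it for their own values, and since the study chose them on single cells of the same genotype their direction is not independent. *Nxt1* had a log2 fold change of 1.53, *Zfp292* of 1.02, *Ckap4* of 0.77, *Rap2b* of 0.66 and *Traf4* of 0.57, all 5 called (adjusted p between 0.0002 and 0.0204 from edgeR). *Sulf2* at 0.18 and *Bcl7a* at -0.01 were not called. The range of this set, from -0.01 to 1.53, is wide. It held *Ung*, *Lig3*, *Mutyh* and *Neil3* as well as *Apex1*, so lying within it does not mark likeness to the set. The values of *Apex1* and *Ung* were not told apart: the interval of *Ung*, from 0.23 to 1.15, holds that of *Apex1*, from 0.53 to 1.05, and *Ung* was the higher without control 3 (0.84 against 0.78) and without CKO sample 1 (0.70 against 0.69).

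Controls 1 and 4, which stood apart in lens and mitochondrial counts, were also left out together. This gave *Apex1* a log2 fold change of 0.85 (edgeR adjusted p = 0.00173), *Ung* 0.41 (edgeR adjusted p = 0.106) and *Lig3* 0.32 (edgeR adjusted p = 0.0445).

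**Figure D5:**
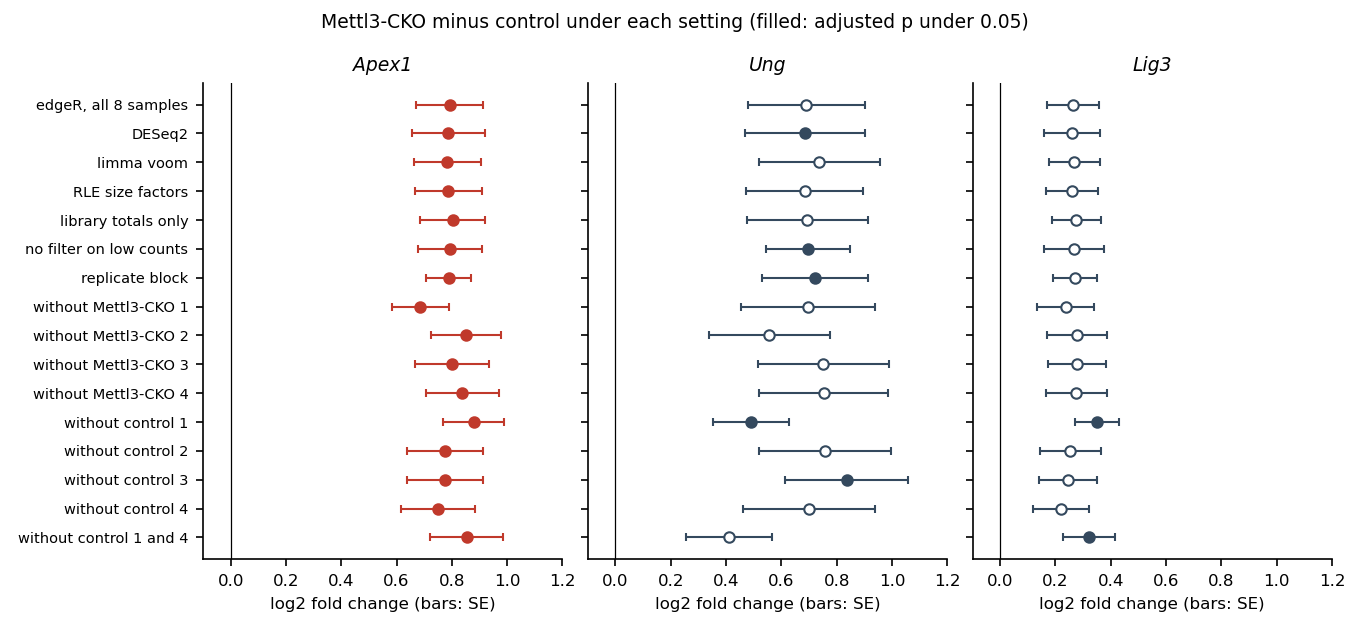
Log2 fold change of *Mettl3*-CKO over control with its standard error for *Apex1*, *Ung* and *Lig3* in the fit of all samples and under 15 other settings, with filled points at an adjusted p under 0.05. *Apex1* was called under all of them, between 0.69 and 0.88, *Ung* under 5 and *Lig3* under 2.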

How the data were processed

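RNA-seq was measured in 4 control and 4 *Mettl3*-CKO retinal samples, named by the sample labels. According to the methods, the authors made NEBNext Ultra libraries, filtered paired-end reads, aligned these with HISAT2 (GRCm38) and assigned them to genes with featureCounts. The deposited values are raw counts per gene. The annotation release and the use of strand were not given in the sources used here. For 9 of the 10 genes the deposited gene length equals the exon bases in GENCODE vM21.

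The test was edgeR 4.0.16 (R 4.3.3): genes kept by filterByExpr (17998), TMM scaling (factors 0.969 to 1.01), the quasi-likelihood test and Benjamini-Hochberg adjustment over all genes tested, with a threshold of 0.05. Standard errors are the absolute log2 fold change divided by the square root of F. Log2 CPM used a prior count of 2. DESeq2 1.42.0, limma 3.58.1 (voom), other scalings, no filter, a replicate block and samples left out were alternatives. The tests were checked on a single set of simulated counts with known changes. There edgeR made 172 true and 19 false calls, DESeq2 172 and 35, and voom 169 and 16. False calls thus took a larger share than the threshold of 0.05 with each tool, and the largest with DESeq2. Nothing in the labels says that samples came from separate animals, so p-values measure the spread between these samples. No pair of same-group samples agreed within sampling noise (lowest chi-square 5.01 per gene).

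Members and lists were chosen with earlier results of these data known. Genes named are the 10 members, list genes past the threshold, abundant or paralogous list genes, overlapping genes, the 7 genes examined with *Apex1* and the 5 profiles nearest to it. *Adprs* was found under its older symbol *Adprhl2*. Single-cell RNA-seq and MeRIP-seq were not analysed here.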

Additional observations from a re-analysis of the deposited data

Results flagged for a closer look

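The spacing of log2 CPM values within each group of 4 samples was examined for the 10 repair genes by Dixon's rule at 95%. In 4 of these 20 groups 1 sample stood apart from the other 3, and about 1 would do so by chance. CKO sample 2 was high for *Neil3*, at 6.14 against 5.30 to 5.39, and for *Neil1*, at 3.77 against 3.31 to 3.35. CKO sample 1 was high for *Lig3*, at 6.27 against 6.14 to 6.15, and for *Ogg1*, at 3.28 against 2.996 to 3.04.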

How the results depend on the processing

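*Apex1* was called under all 15 alternatives, with log2 fold changes from 0.69 to 0.88 when each of the 8 samples was left out in turn. Shares of all genes called are given first, for comparison with the counts below. They were 10.5% in the fit of all samples, 14.2% with DESeq2, 6.23% with no filter and 10.9% with library totals only. With the replicate block the share was 10.3%, and without controls 1 and 4 it was 9.87%. At an unadjusted edgeR p under 0.05 it was 24.6%. With one sample left out it ran from 3.79% (CKO sample 1) to 17.4% (control 1). The number of the 10 genes called was 1 in the fit of all samples and 2 with DESeq2, with no filter on low counts, with the replicate block and without controls 1 and 4 together, in each case with *Ung* or *Lig3* added. It was 5 at an unadjusted p under 0.05, a setting added after the data had been seen, and 1 to 3 with one sample left out, with 3 without control 1 (*Ung*, *Apex1* and *Lig3*). Of the 33 other pathway genes 1 was called, against 2 with DESeq2 and with library totals only, 3 with no filter on low counts and 0 to 3 with one sample left out. Of the 7 nucleotide pool enzymes 1 was called, against 2 with DESeq2 and 0 to 3 with one sample left out. Signs turned for *Ogg1* (0.015 without controls 1 and 4), *Polb* (0.048 without controls 1 and 4, and -0.079 to 0.037 with one sample left out, positive without control 4) and *Neil3* (-0.067 to 0.29 with one sample left out, negative without CKO sample 2), none of which was called. The cause was not tested. Whether the replicate numbers, shared by both groups, pair the samples was not settled. Deviations of same-numbered samples correlated between -0.114 and 0.249. CKO samples 2 and 4 correlated best with the control of their own number (0.215 and 0.249), and CKO samples 1 and 3 did not. With the replicate number as a block the 10 genes gave 2 calls, with *Ung* at 0.72 (adjusted p = 0.0463 from edgeR). By mRNA length in place of gene length, a choice added after the data had been seen, the control ratio of *Apex1* to *Polb* went from 1.35 to 0.472, to *Lig3* from 2.95 to 2.69 and to the glycosylases summed from 0.799 to 0.567.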
